A study of Mus musculus with 6 samples.

Results

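Pparg, Cidec, Lpl, Adipoq, Plin1, Cfd and Car3, genes of fat-cell identity and lipid storage, were examined in mouse colon. They were chosen by name, as the rows of the deposited count table whose reference gene symbol equals 1 of these 7 symbols. Each symbol had exactly 1 row, which gives 7 of the 2033 gene rows. Bulk colon RNA of mice given perfluorooctanoic acid (PFOA), a persistent fluorinated surfactant, over a long period was set against that of control mice, with 3 libraries per group. The labels give no dose, duration, strain, age, sex or colon segment for either group. They name 6 frozen mice per group and do not say which mice entered which library, and p-values then reflect the variation from library to library only, which may be technical.

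The table lists rows that differ between the groups. By mean count, 1035 rows were higher in PFOA and 998 lower, and the log2 ratios left a gap from -1.08 to 0.92. Passing a test therefore adds little for any listed gene, and absence of a row says nothing about a gene. Listed counts summed to between 2136897 and 2269892 in the PFOA libraries, against 1771120 to 2155472 in the control libraries, which is not the sequencing depth. Levels are given as counts and as CPM, counts scaled to a common library total over the tested rows with TMM factors. Of 11 colonocyte markers, 5 have rows and all 5 were read in every library. They are Car1, Guca2a and Alpi, higher in PFOA, and Car4 and Slc26a3, lower in PFOA, and Guca2a lost its call without control replicate 3 (edgeR adjusted p = 0.0604). Smooth muscle markers (Cnn1 and Synm) were read in all libraries as well.

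PPAR-gamma, encoded by Pparg, is a nuclear receptor that binds fatty acid-like ligands, pairs with the retinoid X receptor and switches on genes of fat storage. It is the master regulator of fat-cell formation, and it is also abundant in the surface epithelium of the colon. Mature fat cells hold a large lipid droplet coated by perilipin 1, take up fatty acids released by lipoprotein lipase, and secrete adiponectin and adipsin. Cidec and Lpl are also expressed outside fat cells, the lipase in muscle and macrophages.

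Promoters are shown because the genes below fall into those high in every PFOA library and those near 0 in one of them. The RefSeq table (GRCm38.p6, windows of 300 bases around each start) held 8 promoters for 5 of the 7 genes. Printed are 2 of genes near 0 in PFOA replicate 2 (Adipoq and Plin1) and 2 of genes high in all PFOA libraries (Pparg and Cidec). For Pparg and Cidec, the printed start is the one whose window holds a C/EBP match. The window of Cfd, also near 0 in PFOA replicate 2, is not printed. The counts do not tell the starts of a gene apart. Printed windows run 5′ to 3′ along the gene. Capitals mark CCAAT boxes (CCAAT) and C/EBP sites (TTGCNNAA), searched on both strands.
Adipoq, chr16:23146286-23146585, plus strand: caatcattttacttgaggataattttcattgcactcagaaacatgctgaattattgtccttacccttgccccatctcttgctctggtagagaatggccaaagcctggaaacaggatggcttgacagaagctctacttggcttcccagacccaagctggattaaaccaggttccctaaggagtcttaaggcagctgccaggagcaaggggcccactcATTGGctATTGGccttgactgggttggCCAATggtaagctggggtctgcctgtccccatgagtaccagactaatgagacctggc
Plin1, chr7:79732727-79733026, minus strand: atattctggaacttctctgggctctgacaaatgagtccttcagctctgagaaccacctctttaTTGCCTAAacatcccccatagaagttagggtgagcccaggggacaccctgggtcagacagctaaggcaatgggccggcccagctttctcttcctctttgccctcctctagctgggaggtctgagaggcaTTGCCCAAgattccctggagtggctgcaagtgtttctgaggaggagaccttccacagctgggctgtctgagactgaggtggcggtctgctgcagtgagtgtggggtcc
Pparg, start 3 of 3, chr6:115421816-115422115, plus strand: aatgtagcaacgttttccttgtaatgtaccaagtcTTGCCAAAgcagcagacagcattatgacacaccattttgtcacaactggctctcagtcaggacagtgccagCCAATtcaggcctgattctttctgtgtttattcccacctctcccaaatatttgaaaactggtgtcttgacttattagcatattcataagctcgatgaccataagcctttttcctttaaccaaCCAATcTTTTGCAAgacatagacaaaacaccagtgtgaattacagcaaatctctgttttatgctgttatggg
Cidec, start 2 of 2, chr6:113434715-113435014, minus strand: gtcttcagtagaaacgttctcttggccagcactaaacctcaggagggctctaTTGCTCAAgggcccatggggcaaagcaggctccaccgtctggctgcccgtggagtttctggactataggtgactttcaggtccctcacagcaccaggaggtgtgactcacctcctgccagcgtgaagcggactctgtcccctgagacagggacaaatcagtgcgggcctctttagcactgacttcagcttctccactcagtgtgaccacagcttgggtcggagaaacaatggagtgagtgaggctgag

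C/EBP proteins are the other main activators of fat-cell genes. The TTGCNNAA letters occurred at 2 places in the Plin1 window, at 2 in the window of the third Pparg start and at 1 in that of the second Cidec start, and 10.8% of the 32851 promoters in the table hold them. They were absent from the other 5 windows, which are those of Adipoq, Cfd, the first Cidec start and the first and second Pparg starts. CCAAT boxes, a motif present in 37.4% of promoters, numbered 3 in the Adipoq window, 2 in that of the third Pparg start and 1 in that of the second Pparg start, with none in the other windows. The TATA box (TATAAA, 13.6% of promoters) and the nuclear receptor core site (AGGTCA, 16.3%) were absent from the 4 printed windows. The core site occurred in the windows of the first and second Pparg starts, and the TATA box in that of the second. The paired element of PPAR and the retinoid X receptor (AGGNCA repeated after 1 base) was in none of the 8 windows, and in 0.381% of all promoters. A match describes letters only, not a bound site.

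Pparg, Cidec and Lpl rose in PFOA in every library, whereas Adipoq, Plin1, Cfd and Car3 were high in PFOA replicates 1 and 3 and no higher than the highest control library in PFOA replicate 2. Of the 7 genes, 5 had enough counts in 3 libraries for edgeR's quasi-likelihood test, and all 5 were called higher. Among all 1608 rows tested, 50.0% were called higher and 50.0% lower, so that 100% of the tested rows passed. In scaled CPM, all 3 PFOA libraries lay above all 3 control libraries for 3 of the 7 genes, against 48.6% of the 2033 rows. In bulk RNA, more cells of a type and more RNA per cell cannot be told apart.

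**Figure D1:**
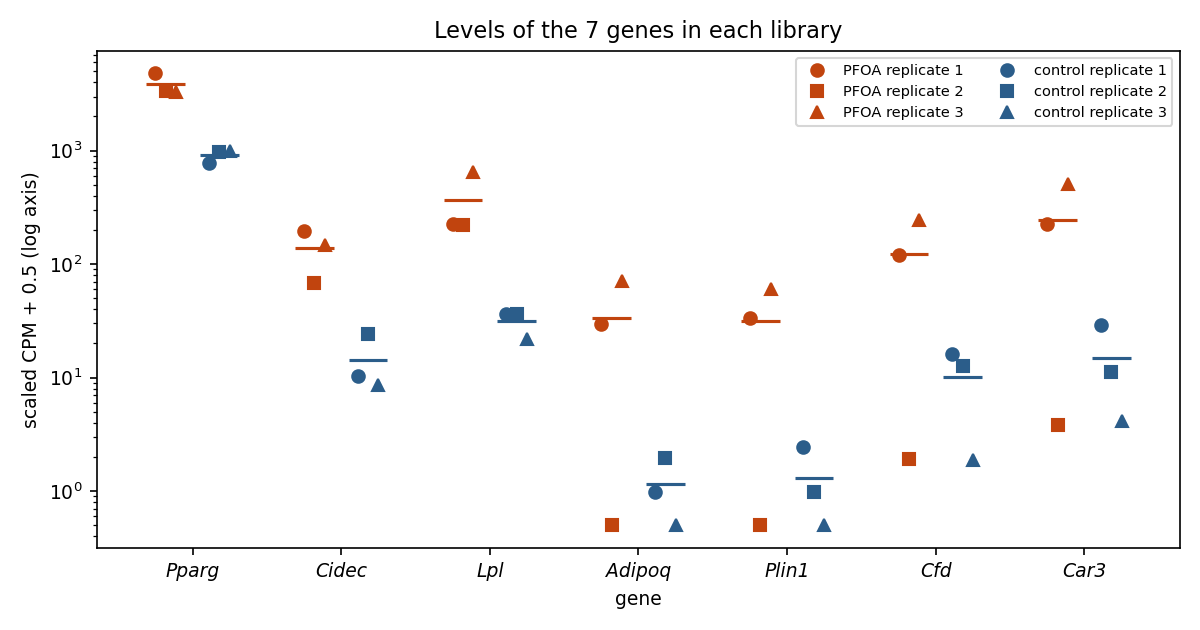
Scaled CPM plus 0.5 (log axis) of each gene in the 3 PFOA libraries (left, orange) and the 3 control libraries (right, blue), with a line at each group mean; symbols mark the replicate. For Pparg, Cidec and Lpl the groups do not overlap, while PFOA replicate 2 (orange square) lies no higher than the highest control library for Adipoq, Plin1, Cfd and Car3.

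Pparg, the receptor itself, lies on chromosome 6 at 115360951 to 115490399 (mm10, plus strand). It had 8958, 7184 and 7123 counts in PFOA replicates 1, 2 and 3, against 1594, 2019 and 2183 in control replicates 1, 2 and 3. The 2 groups were far apart and the libraries within each were close. Its level was 3835 ± 837 CPM in PFOA and 915 ± 119 CPM in control (SD, n = 3 each), a 4.14-fold difference (edgeR adjusted p = 3.85e-04, log2 fold change 2.07 ± 0.25, SE). PFOA replicate 2 was as high as PFOA replicate 3, at 3380 and 3320 CPM. Leaving out any 1 library kept the log2 fold change between 1.83 and 2.20.

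The Pparg row is wider than the annotated gene's exons. Its length in the table is 41197 bases and it includes 3 assembled transcripts, while the exons of the 7 GENCODE M21 transcripts cover 2953 bases. Reads from introns or unspliced RNA may thus be part of its counts, and the starts of the receptor's isoforms are not separated. An assembled locus of 3013 bases, typed in the table as a long non-coding RNA outside the annotation, is listed inside the gene on the same strand (chromosome 6, 115393859 to 115398068). It had 953, 813 and 848 counts in PFOA and 151, 196 and 187 in control, and was looked at after its values were seen. Over the 6 libraries it followed the same order of groups as Pparg, with no overlap. In scaled CPM, all PFOA libraries lay above all control libraries for 48.6% of the 2033 rows. Whether this locus shares reads with the Pparg row was not tested.

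Genes whose profile came closest to that of Pparg were Fgfbp1, which encodes a binding protein of fibroblast growth factors, Mfsd6l and Btnl1, a butyrophilin-like gene of the gut epithelium. Likeness was the root mean square difference of centred log2 CPM over the 6 libraries, among 1502 rows with 1 symbol and a mean of at least 1 CPM. It was 0.10 for Fgfbp1, 0.11 for Mfsd6l and 0.13 for Btnl1. Fgfbp1 had 1597, 1217 and 1118 counts in PFOA and 242, 345 and 322 in control. Cidec and Lpl were farther from Pparg, at 0.81 and 0.95, and Adipoq, Plin1, Cfd and Car3 at 1.96 to 2.29. All listed rows share the group difference, which makes small distances common.

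Cidec, a droplet protein that fuses small lipid droplets into larger ones, lies 1925190 bases from Pparg on the same chromosome (113424634 to 113435760, minus strand). It had 366, 144 and 315 counts in PFOA, against 20, 49 and 18 in control. Every PFOA library was above every control library, and PFOA replicate 2 was the lowest of its group. At 137 ± 64.8 CPM in PFOA and 13.9 ± 8.56 CPM in control (SD, n = 3 each), it was 9.78-fold higher (log2 fold change 3.30 ± 0.56, SE; edgeR adjusted p = 0.00135). Control replicate 2 had the most counts of its group, and without it the log2 fold change was 3.89. With PFOA replicate 2 left out it was 3.67.

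Plin1, the perilipin that coats the droplet of fat cells and controls access of lipases to it, had 61, 0 and 128 counts in PFOA, against 4, 1 and 0 in control (chromosome 7, 79720218 to 79732787, minus strand). The groups overlapped, since PFOA replicate 2 and control replicate 3 both had none. A count of 0 allows up to 3 counts, or 1.41 CPM in PFOA replicate 2 and 1.36 CPM in control replicate 3 (intervals and such limits cover counting error only). Summed counts were 39.0-fold higher in PFOA (95% Clopper-Pearson counting interval 16.4 to 121). With only 2 libraries above the count filter, Plin1 was not tested. Without any filter edgeR gave a log2 fold change of 5.11 ± 1.57 (SE, edgeR adjusted p = 0.0142). With control replicate 3 left out, Plin1 passed the filter and the edgeR adjusted p was 0.0499. It was not tested with limma-voom or with a replicate block. The log2 ratio of scaled counts was 5.28, and 4.27 and 5.90 with PFOA replicates 3 and 2 left out in turn. With control replicates 1 and 3 left out in turn it was 7.04 and 4.67.

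Lpl, the lipase that frees fatty acids from circulating triglycerides, had 418, 465 and 1390 counts in PFOA and 74, 74 and 47 in control (chromosome 8, 68880491 to 68907448, plus strand). All PFOA libraries stood above the control libraries, PFOA replicate 3 highest. Its level was 364 ± 247 CPM in PFOA and 31.1 ± 8.45 CPM in control (SD, n = 3 each), a 12.0-fold difference (log2 fold change 3.55 ± 0.52, SE; edgeR adjusted p = 7.70e-04). PFOA replicate 3 carried part of the size: without it the log2 fold change was 2.84 (edgeR adjusted p = 9.02e-04).

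Adipoq encodes adiponectin, a hormone made almost only by fat cells (chromosome 16, 23146536 to 23158028, plus strand). It had 54, 0 and 150 counts in PFOA, against 1, 3 and 0 in control. PFOA replicate 2 had none, like control replicate 3, so the groups overlapped. Summed counts were 52.6-fold higher in PFOA (95% Clopper-Pearson counting interval 20.2 to 195). Adipoq did not pass the filter. Without any filter edgeR gave a log2 fold change of 5.51 ± 1.64 (SE, edgeR adjusted p = 0.0126). With control replicate 1 left out, Adipoq passed the filter and the edgeR adjusted p was 0.0498. It was not tested with limma-voom or with a replicate block. Taking out PFOA replicate 3 lowered the log2 ratio of scaled counts from 5.72 with all libraries to 4.42, and taking out control replicate 2 raised it to 7.15. It was 6.33 without PFOA replicate 2 and 5.10 without control replicate 3.

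Cfd encodes adipsin (complement factor D), a serine protease of the alternative complement pathway that fat cells secrete (chromosome 10, 79890853 to 79892655, plus strand). It had 225, 3 and 522 counts in PFOA, against 32, 25 and 3 in control. PFOA replicate 2 was level with the lowest control library, at 1.41 CPM beside 1.36 CPM in control replicate 3. The level was 122 ± 121 CPM in PFOA and 9.69 ± 7.42 CPM in control (SD, n = 3 each), with a log2 fold change of 3.65 ± 1.39 (SE; edgeR adjusted p = 0.0315). By p-value it ranked 1598 of the 1608 tested rows. The call was lost without PFOA replicate 3 (log2 fold change 2.68; edgeR adjusted p = 0.0915), without control replicates 1, 2 and 3 in turn (adjusted p = 0.0695, 0.0687 and 0.0901) and with limma-voom (adjusted p = 0.289). Without control replicate 3 the log2 fold change was 3.01, and it was 4.28 without PFOA replicate 2.

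Car3, a carbonic anhydrase abundant in fat cells and in slow skeletal muscle, had 417, 7 and 1099 counts in PFOA, against 59, 22 and 8 in control (chromosome 3, 14863512 to 14872523, plus strand). PFOA replicate 2 had the fewest counts of all 6 libraries. Its level was 247 ± 255 CPM in PFOA and 14.3 ± 13.0 CPM in control (SD, n = 3 each), with a log2 fold change of 4.10 ± 1.42 (SE; edgeR adjusted p = 0.0219; rank 1556 of 1608). The call was lost without PFOA replicate 3 (log2 fold change 3.01; edgeR adjusted p = 0.0623), without control replicates 2 and 3 in turn (adjusted p = 0.0647 and 0.0697) and with limma-voom (adjusted p = 0.204). Leaving out control replicate 1 or PFOA replicate 2 raised the log2 fold change to 4.96 and 4.73. Car1, its neighbour on the other strand (14766214 to 14808368) and a carbonic anhydrase of colonocytes, was high in all PFOA libraries, with 125029, 39638 and 50026 counts in PFOA and 5727, 17063 and 10999 in control. Myh2, a myosin heavy chain and the only skeletal muscle marker of 11 with a row, was lower in PFOA, with 1, 1 and 4 counts against 36, 25 and 65 in control. The part of skeletal muscle in the level of Car3 was not tested.

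**Figure D2:**
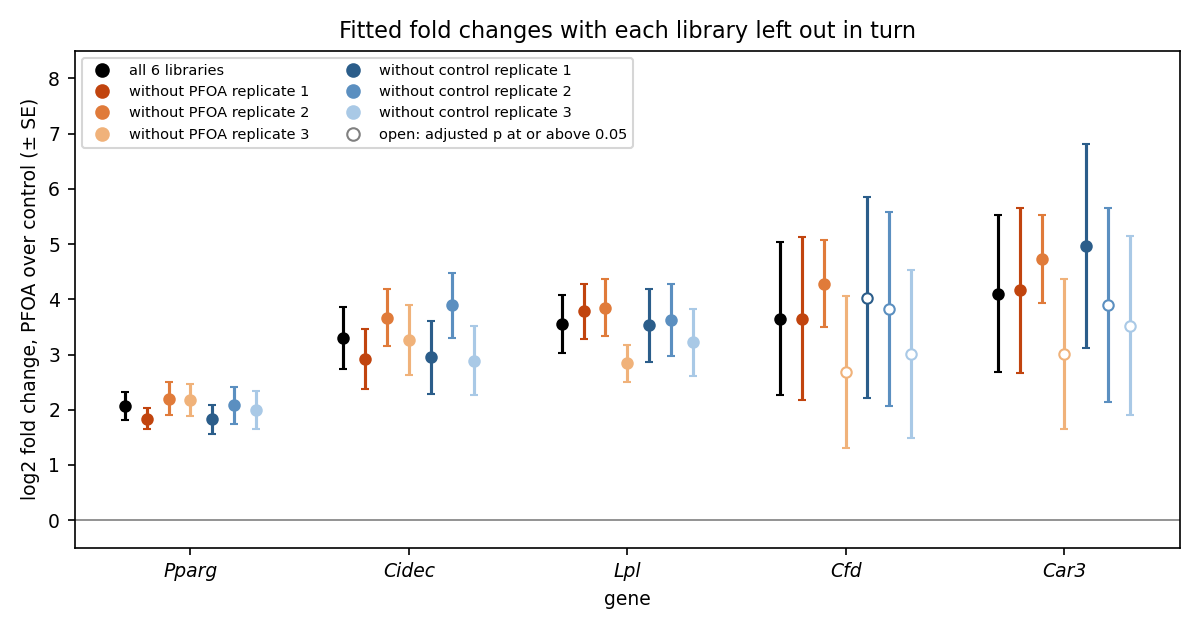
Log2 fold change of PFOA over control with its standard error for the 5 tested genes, with all 6 libraries and with each left out in turn; open symbols have an edgeR adjusted p of 0.05 or more. Pparg, Cidec and Lpl kept their call in each fit, while Cfd lost it in 4 fits and Car3 in 3.

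Adipoq, Plin1, Cfd and Car3 also moved together inside the PFOA group. PFOA replicate 3 held 2.42 times the scaled counts of PFOA replicate 1 for Adipoq (95% counting interval 1.76 to 3.36), 1.83 times for Plin1 (1.34 to 2.52), 2.02 times for Cfd (1.72 to 2.37) and 2.29 times for Car3 (2.05 to 2.57). These intervals overlap one another. Lpl had a ratio of 2.89 (2.59 to 3.24), while Pparg and Cidec were lower in replicate 3 than in replicate 1, at 0.692 (0.671 to 0.714) and 0.749 (0.642 to 0.873). In PFOA replicate 2 the ratio to replicate 1 was 0.0117 for Cfd (0.0024 to 0.0347) and 0.0147 for Car3 (0.00589 to 0.0306), and Adipoq and Plin1 were at 0 (up to 0.0621 and 0.0547). For Pparg that ratio was 0.704, for Cidec 0.346 and for Lpl 0.977. Lpl was thus higher in replicate 3 than in replicate 1, like the 4 genes, and did not follow them in replicate 2. Its interval for replicate 3 lay above those of Plin1, Cfd and Car3 and overlapped that of Adipoq.

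**Figure D3:**
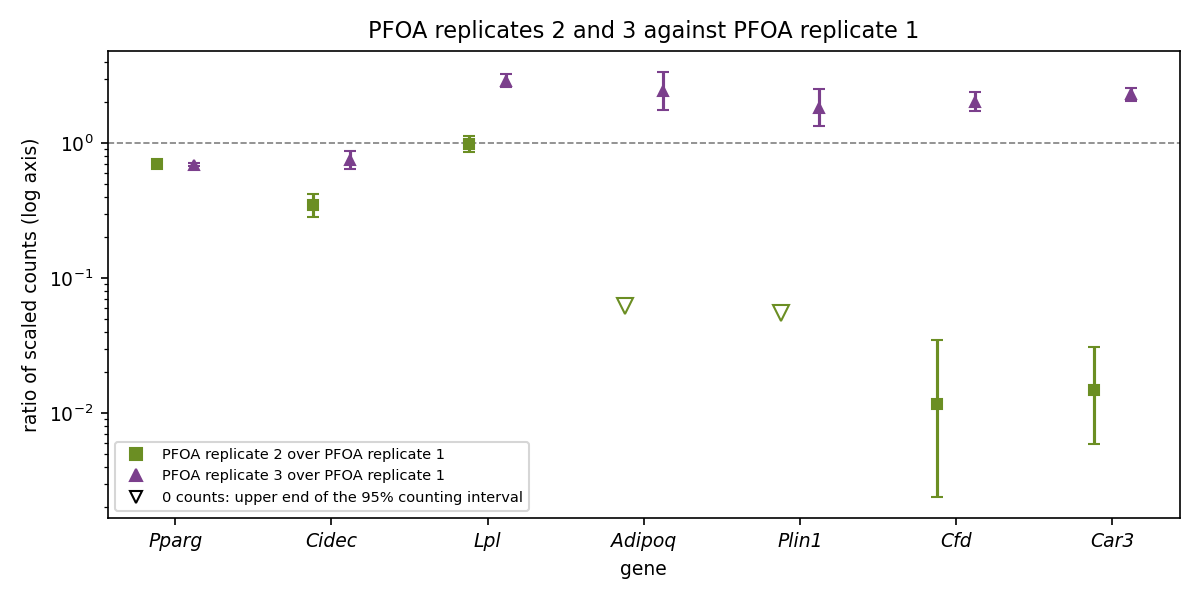
Scaled counts of PFOA replicate 2 (squares) and PFOA replicate 3 (triangles) divided by those of PFOA replicate 1 (log axis) for each gene, with 95% counting intervals; open triangles mark the upper limit where replicate 2 had 0 counts. In replicate 2 Adipoq, Plin1, Cfd and Car3 lie below 0.1 and Pparg, Cidec and Lpl between 0.346 and 0.977.

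Few listed rows had the pattern of these 4 genes, which was defined from their own values. The table lists rows that differ between the groups, and in 989 of its 2033 rows all PFOA libraries lay above all control libraries. Rows with a PFOA library in the control range may thus be few through that selection. Of the 1035 rows higher in PFOA by mean count, 12 (1.16%) had PFOA replicates 1 and 3 above every control library and PFOA replicate 2 no higher than the highest one, and 4 of the 12 were Adipoq, Plin1, Cfd and Car3. The corresponding pattern with PFOA replicate 1 in place of replicate 2 held for 17 rows and with PFOA replicate 3 for 13, none of them among the 7 genes. Hp, which encodes haptoglobin, an acute-phase plasma protein, was the row closest to Adipoq outside the 7 genes, with 12, 3 and 34 counts in PFOA and 2, 3 and 2 in control. Its root mean square difference from Adipoq was 1.34 on the log2 scale, followed by Igkv4-51, an immunoglobulin segment (1.48), and Mcpt1, a mast cell protease (1.49). Plin1, Cfd and Car3 were much closer to Adipoq, at 0.52, 0.77 and 0.76, and Cfd and Car3 differed by 0.42. Summed over the 4 genes, PFOA replicates 1, 2 and 3 held 406, 4.71 and 886 CPM, and control replicates 1, 2 and 3 held 46.8, 24.7 and 4.99 CPM. The sum spanned a wide range in both groups. These 4 were grouped after their values were seen.

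Of the 34 fat-cell markers listed, which include the 7 genes, 11 have a row and 23, among them Lep, Retn, Fabp4 and Lipe, have none. All 9 tested rows, 5 of them among the 7 genes, were called higher in PFOA. Over all 1608 tested rows, 50.0% were called higher and 100% passed in either direction. The median log2 fold change of the 9 was 2.07, against 1.71 over all tested rows that were higher and -0.03 over all tested rows. The 4 rows outside the 7 genes rose in every PFOA library, replicate 2 included. Acvr1c, an activin-type receptor, had 641, 580 and 562 counts in PFOA and 196, 207 and 263 in control. Ces1d, a carboxylesterase that acts on stored triglyceride, had 1934, 2418 and 4052 counts in PFOA and 978, 804 and 883 in control. Nnat, an imprinted gene, and Nrg4, which encodes a growth factor secreted by brown fat, were 3.09-fold and 3.30-fold higher. The summed level of the 11 rows ran from 5115 to 7224 CPM in PFOA and from 1455 to 1565 CPM in control. Most of that sum came from Pparg and Ces1d, with means of 3835 and 1355 CPM in PFOA and 915 and 422 CPM in control. Adipoq and Plin1 added means of only 33.0 and 30.8 CPM in PFOA. Whether fat tissue attached to the colon differed between the libraries was not tested. The markers most restricted to fat cells, Adipoq and Plin1, were at 0 in PFOA replicate 2, where Pparg, Cidec and Lpl were at 3380, 67.8 and 219 CPM, all above the control range.

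Per length of annotated exon, Pparg had the highest level of the 7 genes in both groups, 1299 ± 283 CPM per kb in PFOA and 310 ± 40.4 in control (SD, n = 3 each). Next by mean level in PFOA came Cfd (132 ± 131), Car3 (86.0 ± 89.2), Cidec (73.8 ± 34.9), Lpl (34.7 ± 23.5), Adipoq (23.9 ± 25.5) and Plin1 (6.63 ± 6.43 CPM per kb). Neighbours in this order after Pparg lay within their spread over libraries. With the 41197 bases the table gives, Pparg stood at 93.1 ± 20.3 CPM per kb in PFOA and 22.2 ± 2.89 in control, below the mean of Cfd in PFOA. By counts, Pparg made up 85.3% (95% Wilson interval 84.6 to 86.0), 92.1% (91.4 to 92.6) and 66.4% (65.5 to 67.3) of the counts of the 7 genes in PFOA replicates 1, 2 and 3. The share was 89.3% (87.8 to 90.7), 92.1% (90.9 to 93.1) and 96.6% (95.8 to 97.3) in control replicates 1, 2 and 3.

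Other genes of lipid storage went both ways. Of 22 lipid droplet genes, 3 have rows, 2 of them Cidec and Plin1; the third, Hsd17b13, a droplet-bound dehydrogenase of liver, had 292, 431 and 490 counts in PFOA and 16, 29 and 17 in control (20.2-fold; log2 fold change 4.31 ± 0.35, SE; edgeR adjusted p = 9.84e-05). Among 16 triglyceride synthesis genes, 4 have rows, of which 3 rose and 1 fell. Mogat2, the monoacylglycerol acyltransferase of fat absorption, had 61, 25 and 27 counts in PFOA and 0, 4 and 3 in control. Lpin2, a phosphatidate phosphatase, was 4.72-fold higher, and the row of Gpat3, a glycerol-phosphate acyltransferase merged with Gm42987, was 3.04-fold higher. Gk, glycerol kinase, was 5.76-fold lower. PFOA replicate 1 carried part of these values: the log2 fold change of Lpin2 was 2.29 with it and 1.54 when it was left out, and that of Mogat2 4.02 and 3.36. That of Mogat2 was 3.34 without control replicate 1 and 4.61 without control replicate 2.

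Of the 11 lipolysis genes described, 2 have rows, and both were higher: Mgll, the monoglyceride lipase, by 2.56-fold, and Ces1d, named above. In the lipoprotein lipase list of 18 genes, 3 have rows, and Lpl was the only one that was higher. Gpihbp1, which carries the lipase across capillary walls, had 24, 31 and 42 counts in PFOA and 80, 69 and 61 in control (log2 fold change -1.08 ± 0.32, SE; edgeR adjusted p = 0.0118). A row merging Apoc2, the cofactor of the lipase, with Apoc4 and a predicted gene was 4.71-fold lower. Of 16 fatty acid synthesis genes, 7 have rows. Fads2, a fatty acid desaturase, was 5.89-fold lower, and Acly, Acss2 and the merged row of Scd2 and Scd4 were 2.36-fold, 2.33-fold and 2.29-fold lower. Me1, Acacb and the Elovl6 row were 2.79-fold, 2.08-fold and 2.57-fold higher, and the Elovl6 row lost its call without control replicate 1 (edgeR adjusted p = 0.0581) and under the replicate block (log2 fold change 1.33; edgeR adjusted p = 0.0502).

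**Figure D4:**
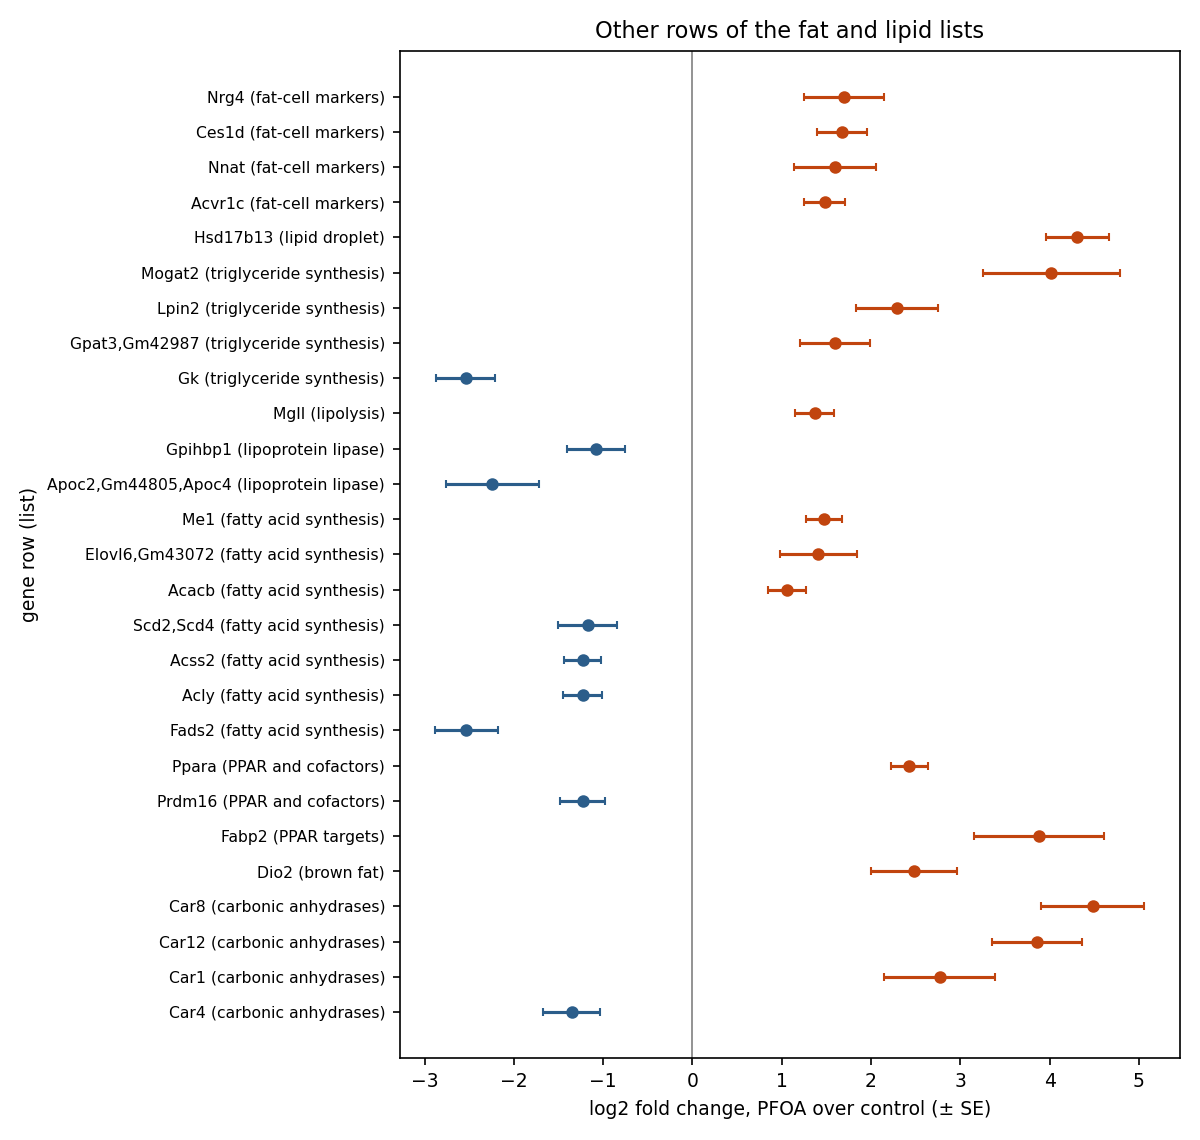
Log2 fold change of PFOA over control with its standard error for tested rows of the fat and lipid lists other than the 7 genes, each shown under the first list that names it. Car8, Hsd17b13 and Mogat2 lie above 4, and Gk, Fads2 and the Apoc2 row below -2.

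Of the 26 partners and regulators of PPAR-gamma, 2 have rows. Ppara, the sister receptor of fatty acid oxidation, had 7039, 10115 and 9728 counts in PFOA and 1708, 1643 and 1758 in control, while Prdm16, a cofactor of brown fat, was 2.35-fold lower. Fabp2, an intestinal fatty acid-binding protein among 13 epithelial PPAR targets described, was 14.4-fold higher. On the log2 scale its difference was 3.88, or 4.86 without control replicate 2. Ppara and Fabp2 were high in PFOA replicate 2 as in the others. Cidec is counted among targets of PPAR-alpha as well, but whether that receptor had a part in the level of Cidec was not tested. In the brown fat list of 12, Dio2, a thyroid hormone deiodinase, had 14, 18 and 13 counts in PFOA and 3, 4 and 1 in control, and Prdm16 was the other row. Cfd and Adipoq were the only 2 of 15 adipokine and receptor genes with a row, and beside Cfd the complement list of 12 held Hc, which encodes C5, with 6, 17 and 34 counts in PFOA and 2, 5 and 5 in control, too few to be tested. Among 16 carbonic anhydrases, Car8 (23.1-fold) and Car12 (14.1-fold) were higher beside Car1 and Car3, and Car4 was 2.55-fold lower. When PFOA replicate 1 was left out, the log2 fold change was 1.94 for Car1 (2.77 with all libraries) and 3.23 for Car12 (3.86 with all libraries).

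Markers of other tissues around the colon moved with the groups as well. Both mesothelium rows of 7 markers were higher in PFOA: Wt1 had 34, 45 and 45 counts in PFOA and 1, 18 and 11 in control, and Upk1b had 29, 37 and 26 in PFOA and 10, 17 and 12 in control. Each lost its call without control replicate 3 (edgeR adjusted p = 0.0599 and 0.0642), and Upk1b without control replicate 1 too (adjusted p = 0.0515). The log2 fold change of Wt1 was 2.08, and 1.42 and 2.78 without control replicates 1 and 2. Their summed level was 33.1 to 38.6 CPM in PFOA and 5.36 to 16.9 CPM in control. Pi16, the only row of 8 markers of adipose progenitors, was 3.36-fold lower. The 2 smooth muscle rows summed to 2218 to 3229 CPM in PFOA, against 4292 to 9446 CPM in control, and all 4 red blood cell rows were lower (123 to 212 CPM in PFOA and 563 to 1487 CPM in control). Endothelial rows were split, with Rbp7 10.7-fold lower, Gpihbp1 lower as above and Aqp1 1.99-fold higher, a call lost without control replicate 3 (edgeR adjusted p = 0.0516). Gfap, a glial gene, was 3.11-fold higher. Alb, Ttr and Cela1 of the liver and pancreas list were lower. The macrophage and B cell lists had no row. The part of any of these tissues in the levels of the 7 genes was not tested. Unlike Adipoq, Plin1, Cfd and Car3, the mesothelial rows were as high in PFOA replicate 2 as in PFOA replicates 1 and 3.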

How the data were processed

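Colon RNA of 3 PFOA and 3 control libraries was sequenced. The authors deposited raw read counts per gene row; HISAT2, HTSeq and mm10 appear without versions in the submitters' processing notes. How rows were selected, strand use and multi-mapping were not given in the sources used here. Columns were matched by the sample descriptions in the labels. Counts were fitted with edgeR 4.0.16 under R 4.3.3 (filterByExpr, TMM, glmQLFit, glmQLFTest, two-sided), with Benjamini-Hochberg adjustment over 1608 rows and a threshold of 0.05. The fit was run on simulated data in which most rows were unchanged. The listed rows differ between the groups, so that run does not check the calls made here. The standard error is the log2 fold change divided by the square root of F. Plain folds are ratios of summed counts over scaled library sizes. Log2 CPM used a prior count of 2. Exon lengths are from GENCODE M21, which held all 7 Ensembl identifiers. Alternatives were DESeq2 1.42.0, limma-voom (limma 3.58.1), other scalings and filters, a replicate block and each library left out.

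The 7 genes and 23 gene lists were chosen with earlier results of these data known. Named genes were the 7, the 3 rows most like Pparg and like Adipoq, and up to 4 rows with the smallest p of each list. All rows of the fatty acid synthesis and colonocyte lists were named as well, a choice made after values were seen. Some genes of the lists are not reported here and were left out of the list counts. The locus inside Pparg and the grouping of Adipoq, Plin1, Cfd and Car3 were chosen after values were seen. Exact permutation of 3 against 3 libraries cannot go below p = 0.1.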

Additional observations from a re-analysis of the deposited data

How the results depend on the processing

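The log2 fold changes of Pparg, Cidec and Lpl kept their direction and call under every alternative run, and none of the 7 genes reversed. Every scaling drew on the listed rows alone, which differ between the groups. The alternatives thus share that limit on the size of the fold changes. Of the 7 genes 5 were called higher in the main fit. The number was 3 with limma-voom and 3 with the replicate block. With each library left out it was 3 to 7, but the number tested changed as well. That was 5 without PFOA replicate 1 or 3, and 7 without PFOA replicate 2 or any control library. Among the leave-out fits, all 7 were called only without PFOA replicate 2, where Adipoq and Plin1 had 0 counts. Dropping the count filter, or lowering it to 1 CPM, brought the number called to 7, with all 7 tested. Over the whole table, 1033 rows were called higher and 998 lower without the filter. At 1 CPM, 957 were called higher and 957 lower. Over the whole table, the main fit called 804 rows higher and 804 lower. Limma-voom called 783 higher and 804 lower, and the replicate block 780 higher and 799 lower, so nearly all rows were still called. With each library left out, 721 to 806 rows were called higher. Cfd missed the threshold with limma-voom (log2 fold change 2.45) and the replicate block (2.73; edgeR adjusted p = 0.220), and so did Car3 (2.80 with limma-voom; 2.99 with the block, edgeR adjusted p = 0.144). With each library left out, Cfd ranged from 2.68 to 4.28 and Car3 from 3.01 to 4.96. The cause was not tested. Deviations of same-numbered libraries correlated at 0.11, -0.03 and 0.10 for numbers 1, 2 and 3, so the numbers were not taken as pairs.

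The share of Pparg among the 7 genes was 81.7%, 95% and 63.5% in PFOA replicates 1, 2 and 3 and 87.8%, 90.6% and 97.3% in control replicates 1, 2 and 3 per kb of GENCODE exon. Per kb of the length in the table, an alternative chosen after seeing the data, it was 24.3%, 57.7% and 11.1% in PFOA and 34.1%, 41.0% and 72.4% in control. Depth limits Adipoq and Plin1, which had 0 to 4 counts in each control library.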
